A study of Rattus norvegicus with 57 samples.

Results

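The liver transcriptome of male Han Wistar rats after 4 days of oral methapyrilene at 30 mg/kg per day was compared with that of vehicle controls killed on the same day. The comparison takes every array titled as 30 mg/kg liver of day 4 (5 arrays) and every array titled as control liver of day 4 (5 arrays), which is 10 of the 57 arrays of the series. All rats were 8 to 10 weeks old at the start, weighed 170 to 200 g, were of the strain Crl:WI(Han) and were housed singly. They received the vehicle carboxymethylcellulose by gavage, with or without the drug. Groups of 6 rats were planned and 5 arrays per group are analysed here, each of them labelled a biological replicate. The other arrays used beside them come from rats given 80 mg/kg for 4 days (4 arrays) and from rats given 0 or 30 mg/kg and killed on day 8 or day 15 (5 arrays per group), or on day 24 once 14 daily doses had been followed by 10 days of recovery (4 arrays per group).

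Methapyrilene is an antihistamine that was withdrawn after it caused liver tumours in rats. In rat liver it is oxidised by cytochrome P450 enzymes to reactive products, and the early injury lies around the portal tracts. Hepatocytes meet reactive chemicals with conjugating and reducing enzymes, many of them under the transcription factor Nrf2, which binds antioxidant response elements. The integrated stress response, which runs through the factor ATF4, and the p53 pathway are other routes by which a hepatocyte answers damage.

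RNA was measured on Affymetrix Rat Genome 230 2.0 arrays as MAS5 signals, a linear intensity that the authors scaled to the same trimmed mean on each array. Each of the 10725 genes tested is represented by 1 probe set. Changes are differences of mean log2 signal, 30 mg/kg minus control, given ± their standard error with n = 5 and 5. A gene was called when limma's p, adjusted by Benjamini-Hochberg over the 10725 genes, lay under 0.05. The arrays held a liver profile: all 12 hepatocyte markers on the array had a mean signal above the median of all values (17.09), with albumin (Alb) between 4664 and 8697. Arrays of the same group correlated at 0.924 to 0.940 over log2 signals and arrays of different groups at 0.924 to 0.939, so the 2 groups did not stand apart as wholes. The 3′ to 5′ ratio of actin, a sign of RNA integrity, differed by 0.07 on the log2 scale (two-sided exact permutation test, p = 0.595).

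After 4 days at 30 mg/kg, 84 genes were called (0.783% of those tested), 57 higher (0.531%) and 27 lower (0.252%). Among the rises that held whichever array was left out, the glutathione transferase Gsta3 rose 3.52-fold, the retinaldehyde dehydrogenase Aldh1a1 2.72-fold, the carboxylesterase Ces2c 1.71-fold and the nucleotide hydrolase Dnph1 1.59-fold. The aldo-keto reductase Akr7a3 and the stress hormone Fgf21 rose 1.88-fold and 2.79-fold, with groups that overlapped. Ephrin A5 (Efna5), a membrane-bound ligand of Eph receptors, fell to 0.536 of its control level. Most other changes were small: 30 of the 57 rises were under 0.5 on the log2 scale, 16 lay between 0.5 and 1, and 11 were at least 1. Of the 27 falls, 11 were under 0.5 and none reached 1. The median size was 0.43 among rises and 0.58 among falls, against a median change of 0.01 over all genes.

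**Figure D1:**
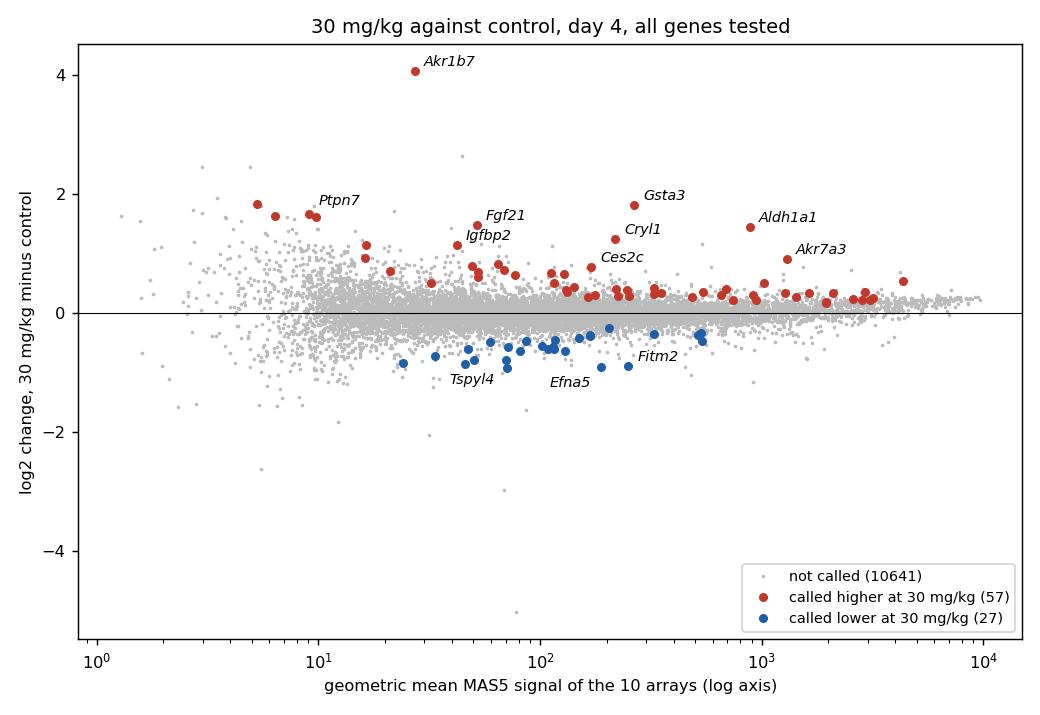
Each point is 1 of the 10725 genes, with its geometric mean MAS5 signal over the 10 arrays on a log axis and its log2 change, 30 mg/kg minus control, on day 4. The 57 genes called higher (red) and 27 called lower (blue) lie among the genes not called (grey), some of which have larger but more variable changes, and the points at the highest signals sit slightly above 0.

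In 52 of the 84 called genes the 5 treated arrays lay wholly beyond the 5 control arrays (42 higher, 10 lower). Over all genes tested, called or not, 305 had no overlap (2.84%), 214 of them higher (2%) and 91 lower (0.848%). The list of called genes is sensitive to single animals. Only 10 calls held in each of the 10 fits that left out 1 array: Ces2c, Gsta3, Aldh1a1, Cryl1, Dnph1, Dsg2 and Prss36 among the rises and Efna5, Rps4y2 and Tfg among the falls. The other 74 ended in at least 1 such fit, with adjusted p up to 0.169. Leaving out control replicates 1 to 5 in turn gave 87, 19, 27, 56 and 75 calls, and leaving out 30 mg/kg replicates 1 to 5 gave 43, 23, 51, 48 and 32. When only the 10 arrays of the comparison were fitted, without the other 10 groups to share the estimate of spread, 2 genes were called, Gsta3 and Ces2c.

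Gsta3, an alpha-class glutathione transferase that conjugates reactive electrophiles, read 134, 202, 129, 182 and 89.1 in the control rats. It read 355, 369, 650, 459 and 782 in the rats given 30 mg/kg. Every treated array was above every control array, and the change was 1.82 ± 0.28 (adjusted p = 0.00029). The sequence around the annotated start of Gsta3 is shown because the letters of an antioxidant response element core lie in it. It is RefSeq sequence of build GRCr8, plus strand, chr9:31154739-31155038, from 250 bases before the start to 50 bases after it, and capitals mark the core:
Gsta3: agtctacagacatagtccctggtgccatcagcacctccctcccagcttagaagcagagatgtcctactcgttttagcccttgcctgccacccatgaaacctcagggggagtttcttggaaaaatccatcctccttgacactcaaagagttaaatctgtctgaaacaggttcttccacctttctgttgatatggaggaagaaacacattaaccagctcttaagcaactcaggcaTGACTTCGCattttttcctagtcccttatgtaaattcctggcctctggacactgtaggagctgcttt

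The motif searched on both strands was TGACNNNGC, which can contain the AP-1 motif TGACTCA. In Gsta3 it begins 17 bases upstream of the start. The motif was in 12.2% of all 27457 RefSeq windows of this length and in 14.8% of the windows of genes tested. A window was given for 73 of the 84 called genes. Of the genes called higher, 3 of 49 windows held the motif (6.12%), which is below the share over all windows, and of the genes called lower 2 of 24 did (8.33%). In the list of Nrf2 genes it was in 8 of 30 windows (26.7%), and in the list of ATF4 genes, which is not named for this element, in 7 of 26 (26.9%). The called genes as a whole thus did not hold these letters more often than other genes did, and a match describes the window and says nothing on binding.

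Aldh1a1, which oxidises retinaldehyde and other aldehydes, read 716, 318, 380, 673 and 746 in controls and 1262, 1660, 1829, 979 and 1736 at 30 mg/kg. The groups did not overlap (1.45 ± 0.28, adjusted p = 0.00737). Cryl1, lambda crystallin, a dehydrogenase of the uronate cycle that uses gulonate, read 199, 127, 143, 115 and 137 in controls and 366, 299, 455, 225 and 378 at 30 mg/kg. The lowest treated array, 225, was above the highest control, 199 (1.24 ± 0.21, adjusted p = 0.00125). Ces2c hydrolyses ester drugs, and its signals varied little between rats: 127, 118, 139, 123 and 143 in controls and 256, 238, 226, 192 and 203 at 30 mg/kg. The change was 0.78 ± 0.12 (adjusted p = 0.00029).

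Akr7a3, which reduces toxic aldehydes such as the dialdehyde of aflatoxin, read 1169, 850, 1091, 847 and 823 in controls. At 30 mg/kg 3 arrays were high (2398, 2200 and 2337) and 2 were close to the highest control (1248 and 1148), so the groups overlapped. The change was 0.91 ± 0.20 (adjusted p = 0.0235), and the call ended without control replicate 2 and without 30 mg/kg replicates 1, 3 or 5 (adjusted p 0.0554 to 0.0796). Akr1b7, another aldo-keto reductase, had the largest change of any called gene, 4.06 ± 1.0 (adjusted p = 0.0374), and the widest scatter. Its control signals were 13.6, 7.87, 1.94, 9.15 and 6.85, all below the median of all values. Its treated signals were 12.5, 316, 701, 30.9 and 199, so that 1 treated rat stayed at the control level while the others rose above it. The call ended in 7 of the 10 fits that left out 1 array, those without control replicates 2 to 5 or without 30 mg/kg replicates 2, 3 or 5 (adjusted p 0.0530 to 0.117). With 3.31 added to every signal, the 20th percentile of all values, its fold was 11.4 in place of 16.7.

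Ugt2b34l1, named as a UDP-glucuronosyltransferase and so of the enzymes that conjugate drugs and steroids, read 54.3, 51.8, 38.1, 59 and 70.8 in controls. It read 85.9, 98.5, 98.6, 84.6 and 76.8 at 30 mg/kg, with no overlap (0.72 ± 0.16, adjusted p = 0.0273). The call ended without control replicates 2 or 3 or without 30 mg/kg replicates 2 or 3 (adjusted p 0.0525 to 0.0962). Smaller rises came in Akr1a1, the aldehyde reductase, at 0.23 ± 0.05, and Adh5, which clears formaldehyde adducts of glutathione, at 0.34 ± 0.08, both without overlap (adjusted p = 0.0282 and 0.0358). With quantile normalization Akr1a1 was at 0.16 and no longer called (adjusted p = 0.200), with arrays set to a common median neither was (0.227 and 0.225), and their calls ended in 5 and 6 of the 10 fits that left out 1 array. Dnph1, a hydrolase that removes a damaged nucleotide from the DNA precursor pool, read 113, 95.8, 83.9, 87.2 and 70.0 in controls and 119, 150, 154, 133 and 153 at 30 mg/kg, with no overlap (0.67 ± 0.13, adjusted p = 0.00729). Dctpp1, which degrades dCTP, rose by 0.65 ± 0.16 (adjusted p = 0.0413) with overlapping groups. Probe sets of multigene families such as the glutathione transferases, carboxylesterases and aldo-keto reductases can also bind transcripts of close relatives, which was not analysed here.

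**Figure D2:**
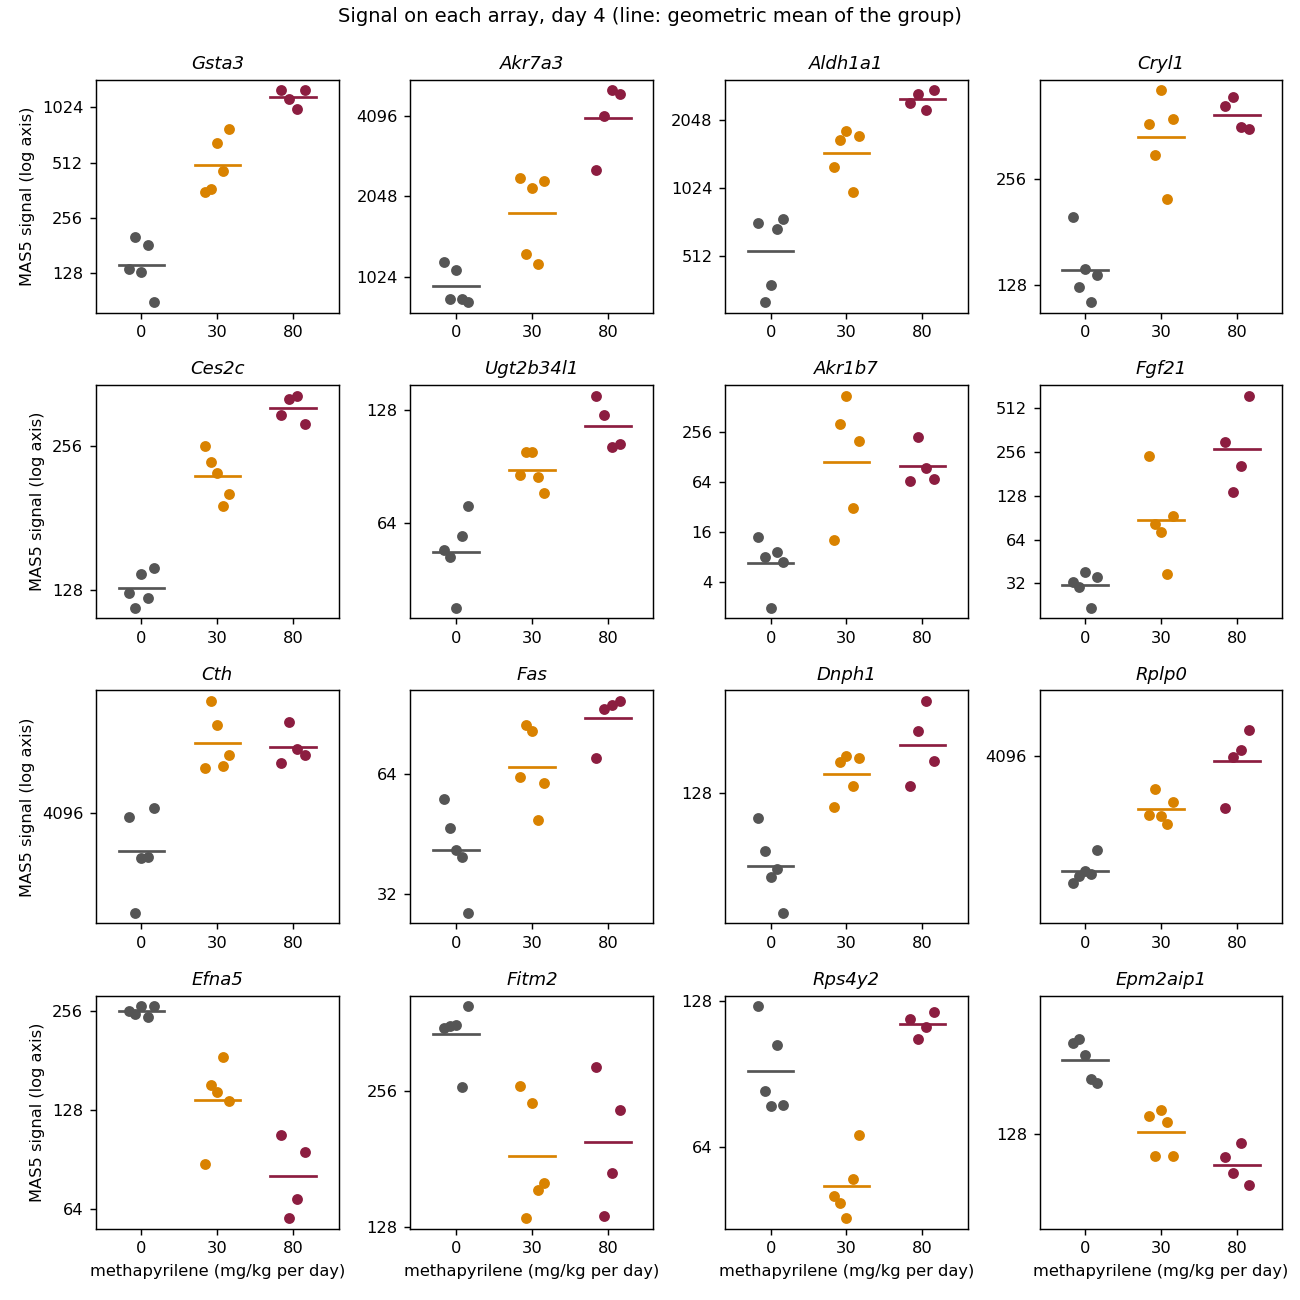
MAS5 signal on each day 4 array (log axis) for 16 genes named in the text, at 0, 30 and 80 mg/kg per day; lines are geometric means of 5, 5 and 4 arrays. Gsta3, Aldh1a1, Cryl1, Ces2c, Ugt2b34l1, Cth, Dnph1, Rplp0, Efna5, Rps4y2 and Epm2aip1 have no overlap between 0 and 30 mg/kg, and in Akr1b7 the 30 mg/kg arrays run from 12.5 to 701.

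The wider list of Nrf2 genes had 4 of 36 tested members called higher, Gsta3, Aldh1a1, Akr7a3 and Akr1b7, and none lower. That is 11.1% of the list against 0.531% of all genes called higher. This list and the others were chosen with earlier results of these data known, so such shares are not independent of the data. The list's median change was 0.19 and 28 of 36 members lay above 0, against 0.01 and 5626 of 10725 over all genes. The classical markers of the pathway were not called. Nqo1, a quinone reductase, changed by 0.03 ± 0.38, with readings between 175 and 701 in controls and 202 and 635 at 30 mg/kg. Hmox1, heme oxygenase, changed by 0.17 ± 0.18 and Gclc, the catalytic subunit of glutathione synthesis, by 0.13 ± 0.14. Abcc3, an export pump for conjugates, read 2.82 to 17.8 in controls and 14.4 to 30.8 at 30 mg/kg (1.38 ± 0.39, adjusted p = 0.075), and Gsta4 and Gstm1 differed by 0.27 ± 0.08 and 0.25 ± 0.07 (adjusted p = 0.079 for each).

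Of the drug metabolism genes under the receptors CAR and PXR, 1 of 26 was called, Ces2c (3.85%, against 0.531% of all genes called higher). The list's median was 0.15 with 19 of 26 above 0. With quantile normalization it was 0.0080 with 15 of 26 above 0. In the acyl-CoA thioesterases, enzymes that release fatty acids from CoA, 0 of 10 were called by limma, with a median of 0.24. Acot4 read 89.8 to 122 in controls and 120 to 193 at 30 mg/kg (0.69 ± 0.19, adjusted p = 0.056). Acot3 and Acot2 differed by 0.69 ± 0.21 and 0.71 ± 0.22 (adjusted p = 0.10 and 0.095), and 1 treated array of Acot2 read 784 where the others read 292 to 385. Over all genes 1484 had an unadjusted p under 0.05.

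Fgf21, a hormone that hepatocytes release under ATF4 and PPAR alpha, read 32.7, 30.3, 38.3, 21.9 and 35.2 in controls. At 30 mg/kg it read 240, 81.5, 71.8, 37.4 and 93.4. One treated array, at 37.4, lay within the control range and the other 4 were above it (1.48 ± 0.36, adjusted p = 0.0363). Without 30 mg/kg replicate 1, the highest array, the change was 1.11 (adjusted p = 0.107), and the call also ended without control replicates 2, 3 or 4 or 30 mg/kg replicates 2 or 5 (adjusted p 0.0718 to 0.0882). The start of Fgf21 is shown because it was the only one of the 49 windows of genes called higher with the letters of a CEBP-ATF response element, at which ATF4 binds in partnership with C/EBP proteins. The sequence is RefSeq, GRCr8, minus strand, chr1:105221327-105221626, read 5′ to 3′ along the gene from 250 bases before its start to 50 after, and capitals mark the element:
Fgf21: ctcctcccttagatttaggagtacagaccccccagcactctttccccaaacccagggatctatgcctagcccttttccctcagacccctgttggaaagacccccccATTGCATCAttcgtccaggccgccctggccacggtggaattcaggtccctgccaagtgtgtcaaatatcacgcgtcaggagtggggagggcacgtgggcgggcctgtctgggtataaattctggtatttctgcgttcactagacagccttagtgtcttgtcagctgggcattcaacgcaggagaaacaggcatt

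The element was searched as TGATGNAAT on both strands, does not contain the antioxidant core, and begins 144 bases upstream of the start on the strand opposite to the gene. It was in 1.05% of all windows, in 0.546% of those of genes tested and in 2 of 26 windows of the ATF4 list. A search for the direct repeat bound by PPAR alpha, AGGTCA and AGGTCA with any 1 base between them, found it in 0.0583% of all windows and in 0 of 49 and 0 of 24 windows of genes called higher and lower.

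Of the ATF4 list, 2 of 29 members were called, Fgf21 and Cth (6.90%, against 0.531% of all genes called higher). The list's median was 0.11 with 20 of 29 above 0, against 0.01 and 5626 of 10725 over all genes. Cth, which makes cysteine from cystathionine, read 4038, 2894, 3499, 3509 and 4173 in controls and 4791, 6048, 5561, 4828 and 5012 at 30 mg/kg. The groups did not overlap (0.54 ± 0.13, adjusted p = 0.0396), although the call ended in 8 of the 10 fits that left out 1 array, all but those without control replicates 1 or 5 (adjusted p 0.0514 to 0.137), and with quantile normalization (adjusted p = 0.0606). Other ATF4 targets were uneven between rats. Trib3, a pseudokinase, read 17.1 to 83.4 in controls and 367, 59.7, 71, 56 and 100 at 30 mg/kg, and the array at 367 is the one highest for Fgf21 and Acot2. Atf3, a stress-induced factor, and Gdf15, a secreted stress signal, differed by 1.43 ± 0.55 and 1.04 ± 0.41 (adjusted p = 0.22 for each).

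In the endoplasmic reticulum, the chaperone and degradation genes lay on the other side of 0. None of 20 was called by limma, but 18 of the 20 had a lower mean at 30 mg/kg, 2 a higher one, and the median was -0.22. Hyou1, an ER chaperone, read 164, 229, 267, 299 and 332 in controls and 166, 144, 180, 190 and 125 at 30 mg/kg (-0.66 ± 0.20, adjusted p = 0.095). Creld2, an ER stress-induced disulfide isomerase, read 440 to 1010 in controls and 339 to 522 at 30 mg/kg (-0.55 ± 0.16, adjusted p = 0.077). Herpud1, of the degradation machinery, differed by -0.48 ± 0.22 (adjusted p = 0.30). With quantile normalization the median was -0.24 and 0 of 20 lay above 0.

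Fas, the death receptor and a p53 target, read 55.4, 46.9, 41.2, 39.7 and 28.7 in controls and 63, 85.1, 82.4, 49.2 and 61 at 30 mg/kg. A single treated array, at 49.2, lay within the control range (0.69 ± 0.17, adjusted p = 0.0396), and the call ended in 8 of the 10 fits that left out 1 array, the exceptions being control replicate 1 and 30 mg/kg replicate 4 (adjusted p 0.0541 to 0.128). It was the only call among 14 p53 targets (7.14%, against 0.531% of all genes called higher), whose median was 0.20. Cdkn1a, the cell cycle inhibitor p21, and Gadd45a differed by 0.44 ± 0.21 and 0.78 ± 0.37 (adjusted p = 0.35 and 0.33).

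None of the 29 mitosis genes tested was called by limma, yet 28 had a higher mean at 30 mg/kg and the median change was 0.71. Mki67, a marker of cycling cells, read 53.9, 28.1, 23.8, 12.5 and 11.8 in controls and 15.3, 56.7, 54.4, 27.6 and 59.8 at 30 mg/kg. Control replicate 1 was among the highest arrays and 30 mg/kg replicate 1 among the lowest, and the groups overlapped (0.78 ± 0.41, adjusted p = 0.41). The same 2 arrays crossed in Ccna2, cyclin A, which read 67.4, 24.2, 21.1, 11.9 and 10.5 in controls and 16.6, 58.1, 61, 24.5 and 69.5 at 30 mg/kg. These genes are expressed together in dividing cells, so their 28 signs are not 28 separate observations. Of 23 DNA replication genes 0 were called and the median was 0.11.

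Immediate early genes, which respond within minutes to growth factors or handling, had 0 of 18 called, a median of 0.37 and 17 of 18 above 0. Egr1 read 964, 355, 363, 212 and 221 in controls and 687, 785, 352, 2172 and 802 at 30 mg/kg (1.17 ± 0.32, adjusted p = 0.069).

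**Figure D3:**
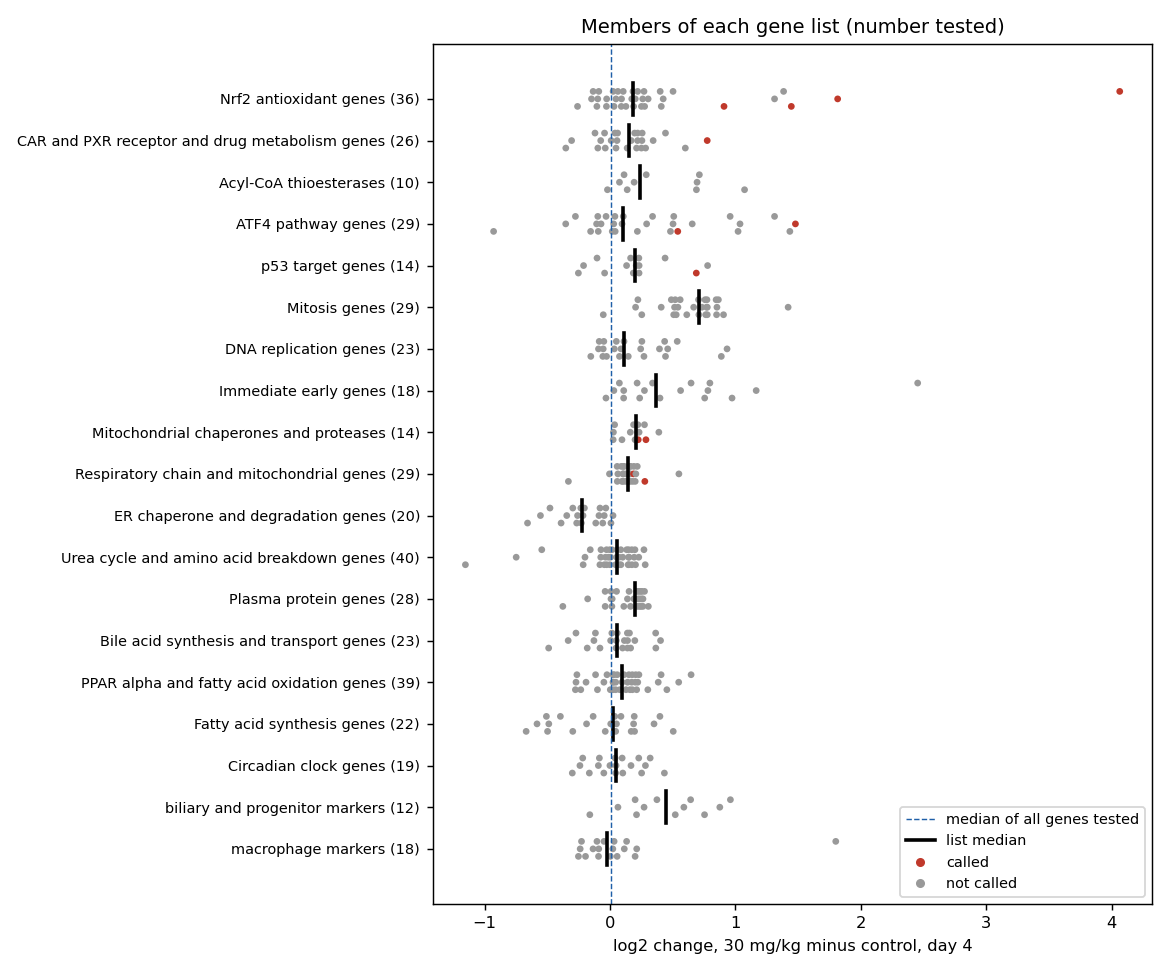
Each point is a gene of a list (number tested in brackets), placed by its log2 change, 30 mg/kg minus control, on day 4; red points are called, short black lines are list medians, and the dashed line is the median of all genes, 0.01. Called members stand in the lists of Nrf2, CAR and PXR, ATF4, p53, mitochondrial chaperone and respiratory chain genes, the mitosis list has its median at 0.71, and the ER list lies below 0.

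Of 29 respiratory chain genes 2 were called (6.90%, against 0.531% of all genes called higher), with a list median of 0.14. Uqcrc1, a core subunit of complex III, read 1238, 1197, 1300, 1344 and 1425 in controls and 1476, 1804, 1583, 1459 and 1573 at 30 mg/kg (0.28 ± 0.06, adjusted p = 0.0128). Sdhc, a membrane anchor of complex II, read 1779, 1718, 1824, 1957 and 1872 in controls and 2036, 2156, 2174, 1997 and 2054 at 30 mg/kg (0.19 ± 0.05, adjusted p = 0.0483). Neither gene's groups overlapped. Of 14 mitochondrial chaperones and proteases 2 were called (14.3%, against the same 0.531%), and all 14 lay above 0 with a median of 0.21. Hspe1, the co-chaperonin of Hsp60, read 2622, 2793, 2822, 3012 and 3070 in controls and 3289, 3311, 3449, 3312 and 3353 at 30 mg/kg (0.23 ± 0.05, adjusted p = 0.032). Clpp, a matrix protease, read 209, 195, 202, 199.7 and 208 in controls and 241, 249.6, 251, 259 and 236 at 30 mg/kg (0.29 ± 0.07, adjusted p = 0.0398). These groups did not overlap either. Outside the lists, Ndufb4 of complex I, the lipoate synthase Lias, the 2-oxoglutarate dehydrogenase subunit Dlst and the mitochondrial ribosomal protein Mrpl21 rose by 0.17 to 0.34. With quantile normalization Mrpl21 was still called (adjusted p = 0.00886), but Lias and Dlst were not (0.0587 and 0.0549). With arrays set to a common median Lias, Dlst and Mrpl21 were not called (adjusted p = 0.159, 0.225 and 0.138). They were called in 4, 2 and 8 of the 10 fits that left out 1 array. The ribosomal proteins Rplp0, Rpsa, Rpl11 and Rpl27 rose by 0.36 ± 0.08, 0.33 ± 0.07, 0.25 ± 0.06 and 0.21 ± 0.06 (adjusted p = 0.0127, 0.0112, 0.0488 and 0.0483). Rplp0 read 2447, 2520, 2570, 2545 and 2797 in controls and 3225, 3576, 3206, 3111 and 3404 at 30 mg/kg, with no overlap. Among 39 cytosolic ribosomal protein genes, a list made and narrowed after these values were seen and therefore not tested, all 39 lay above 0 with a median of 0.22. Among the 51 genes of the wider set, with all symbols of the Rpl and Rps kind including paralogs and S6 kinases, 45 lay above 0, 4 were called higher and 1 lower.

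These small rises have to be read beside a shift that moves with signal. Over the 238 genes with a mean signal of at least 3000 the median change was 0.16 and 92.0% lay above 0. Over the 655 genes between 1000 and 3000 the median was 0.05, and over the 4294 between 100 and 1000 it was -0.0026. With quantile normalization the median of the 39 ribosomal genes was 0.12, that of the respiratory chain list 0.08 and that of the mitochondrial chaperones 0.17. Rplp0, Rpsa, Uqcrc1 and Clpp were still called (0.27, 0.24, 0.25 and 0.30, adjusted p = 0.0274, 0.0311, 0.00886 and 0.0482), whereas Rpl11, Rpl27, Sdhc, Hspe1 and Ndufb4 were not (adjusted p 0.161 to 0.242). With arrays set to a common median none of these 9 genes was called: the changes kept their size and the adjusted p were 0.0893 for Rplp0, 0.122 for Rpsa, 0.183 for Uqcrc1 and 0.198 to 0.407 for the others. In the 10 fits that left out 1 array, Rplp0 and Rpsa were called in 9, Uqcrc1 in 8, Clpp and Hspe1 in 2, Sdhc and Rpl27 in 1, and Rpl11 and Ndufb4 in 0 (adjusted p up to 0.141). The 28 plasma protein genes, also of high signal, had a median of 0.20 with 0 called, and -0.0029 with quantile normalization. What lies behind the shift was not tested.

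Among called genes outside the lists, Igfbp2, which binds insulin-like growth factors, read 32.6, 22.2, 22.7, 25.3 and 44.7 in controls and 86.8, 64.9, 43.9, 77.8 and 50.1 at 30 mg/kg (1.14 ± 0.27, adjusted p = 0.0289). The lowest treated array, 43.9, lay just under the highest control, 44.7, and the call ended when any of control replicates 2, 3 and 4 or of 30 mg/kg replicates 1, 2 and 4 was left out (adjusted p 0.0596 to 0.0859). Smad3, which carries TGF-beta signals to the nucleus, rose from between 35.3 and 49.8 to between 60.9 and 70.5 (0.61 ± 0.12, adjusted p = 0.0112). The junction proteins desmoglein 2 (Dsg2) and E-cadherin (Cdh1) rose by 0.40 ± 0.08 and 0.50 ± 0.13 (adjusted p = 0.00729 and 0.0488). The call of Smad3 ended without control replicate 2 (adjusted p = 0.0594) and that of Cdh1 in 8 of the 10 fits that left out 1 array (adjusted p up to 0.159). Mthfd1, of one-carbon metabolism, and Aco1, the iron-responsive aconitase, rose by 0.34 ± 0.08 and 0.31 ± 0.07 (adjusted p = 0.0387 and 0.0320). They were called in 3 and 5 of the 10 fits that left out 1 array. With arrays set to a common median neither was called (adjusted p = 0.211 and 0.151). With quantile normalization Aco1 was called (adjusted p = 0.0326) and Mthfd1 was not (0.0525).

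Some of the larger rises were at low signal. Of the 57 rises, 8 started from a control level below the median of all values, and none of the 27 falls did. Akr1b7, described above, is one of the 8. Lama5, a laminin chain of basement membranes, had the second largest rise of all called genes. It read 2.64, 2.39, 2.07, 6.03 and 2.19 in controls and 19.7, 9.51, 11.7, 11.7 and 3.78 at 30 mg/kg, with overlap (1.83 ± 0.41, adjusted p = 0.0202). Ptpn7, a tyrosine phosphatase of blood cells, read 9.61, 11.5, 1.33, 5.59 and 4.24 in controls and 14.9, 19.8, 12.6, 14.8 and 20.2 at 30 mg/kg. Ap1m2, an epithelial clathrin adaptor, read 3.87, 6.5, 6.79, 0.98 and 3.7 in controls and 9.61, 14.8, 10.3, 9.08 and 13.3 at 30 mg/kg. In both genes every treated array was above every control (1.66 ± 0.39 and 1.63 ± 0.35, adjusted p = 0.0289 and 0.0143). Comp, a matrix protein of cartilage, read 7.34, 5.83, 3.99, 8.88 and 3.52 in controls and 19.6, 12.4, 22.9, 14.8 and 17.4 at 30 mg/kg. Prss36, a serine protease, read 14.96, 11.02, 11.3, 5.31 and 16.1 in controls and 19.5, 26.8, 32.6, 22.9 and 21.5 at 30 mg/kg. These 2 did not overlap (1.61 ± 0.39 and 1.14 ± 0.23, adjusted p = 0.0363 and 0.0112). Kcnab2 and Itpka, the other 2 of the 8, rose by 0.93 ± 0.24 and 0.71 ± 0.18 with overlapping groups. Of these 7 genes Prss36 was called in all 10 fits that left out 1 array, Ap1m2 in 8, Lama5 and Ptpn7 in 7, and Comp, Kcnab2 and Itpka in 2 (adjusted p up to 0.137). At such signals the size of a fold depends on the floor: with 3.31 added, the change of Ptpn7 was 1.11.

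Chmp4c, of the ESCRT machinery that closes membranes, read 46.1, 50.8, 43.8, 59.9 and 44.5 in controls and 81.3, 105, 104, 71.8 and 74.7 at 30 mg/kg (0.83 ± 0.21, adjusted p = 0.0448). Klrg1, a receptor of lymphocytes, read 46.6, 39.0, 37.4, 38.9 and 27.5 in controls and 46.7, 70.6, 62.3, 75.0 and 74.8 at 30 mg/kg (0.80 ± 0.21, adjusted p = 0.0488). Neither overlapped, though in Klrg1 the lowest treated array and the highest control were 46.7 and 46.6, and each call ended in 8 of the 10 fits that left out 1 array (adjusted p up to 0.129).

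Among the falls, Efna5 read 256, 250, 264, 246 and 264 in controls and 87.8, 152, 145, 185 and 136 at 30 mg/kg, so the highest treated array stayed under the lowest control (-0.90 ± 0.18, adjusted p = 0.00737). Fitm2, an ER protein needed for lipid droplet formation, read 352, 355, 357, 261 and 394 in controls and 262, 134, 240, 154 and 160 at 30 mg/kg (-0.90 ± 0.19, adjusted p = 0.0128). The groups met at 261 and 262, both probe sets of the gene were lower, and the call ended without 30 mg/kg replicate 2 (adjusted p = 0.0672). Fam168a read 93.3, 54.7, 79.1, 50 and 45.1 in controls and 44.4, 22.1, 40, 33.5 and 35.3 at 30 mg/kg, with no overlap (-0.86 ± 0.21, adjusted p = 0.032). Its lowest control and highest treated array, 45.1 and 44.4, were close. It was called in 4 of the 10 fits that left out 1 array (adjusted p up to 0.128).

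Rps4y2, named as a ribosomal protein S4 gene, read 125, 83.6, 77.9, 104 and 78.1 in controls and 50.8, 49.1, 45.6, 54.9 and 67.7 at 30 mg/kg (-0.79 ± 0.15, adjusted p = 0.00737). It did not follow dose: at 80 mg/kg it read 118, 107, 113 and 122, higher than at 30 mg/kg by 1.11 ± 0.16 (adjusted p = 3.5e-06). The 30 mg/kg arrays in this difference are those on which the gene was called. S4 genes have near-identical copies, and whether the probe set separates them was not analysed here. Epm2aip1, which takes part in the control of glycogen synthase, read 185, 187, 176, 160 and 157 in controls and 137, 117, 141, 134 and 117 at 30 mg/kg (-0.42 ± 0.09, adjusted p = 0.0178). Its call ended when control replicate 2 or when 30 mg/kg replicates 2 or 5 were left out (adjusted p 0.0629 to 0.0686).

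The remaining falls included several genes of nuclear proteins, named here because they were called and not as a tested group. The histone deacetylase Hdac2 read 482 to 713 in controls and 373 to 539 at 30 mg/kg (-0.46 ± 0.11, adjusted p = 0.0289). The chromatin remodeller Chd7, the cohesin loader Nipbl, the RNA export factor Thoc2, the corepressor Rcor1, the coactivator Ncoa5, the kinetochore protein Mis12, the mRNA processing factor Rbbp6 and the zinc finger genes Zfp445 and Zfp933 fell by amounts from 0.56 to 0.83. Groups overlapped in all of these but Mis12 and Rbbp6. Mis12 read 73.6, 91.3, 78.7, 88.0 and 108.6 in controls and 61.1, 51.6, 64.0, 65.4 and 52.3 at 30 mg/kg. Rbbp6 read 125, 130.4, 130.2, 116 and 118 in controls and 109, 84.9, 99.0, 70.6 and 64.9 at 30 mg/kg. Other probe sets of Rbbp6 differed by -0.01, -0.01 and -0.86, and with the mean of its probe sets it was not called (adjusted p = 0.196). Smaller falls were also seen in another probe set of Zfp445 (-0.06), Thoc2 (-0.15), Nipbl (-0.20), Chd7 (-0.27) and Rcor1 (-0.47), while further ones of Thoc2 and Nipbl were at -0.60 and -0.92. Each call of this paragraph held in only 1 to 4 of the 10 fits that left out 1 array.

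Smaller falls without overlap came in 4 other genes. The lysosomal adaptor Plekhm1 read 111, 104, 93.2, 95.7 and 107 in controls and 89.9, 73.2, 67.7, 73.7 and 65.2 at 30 mg/kg (-0.47 ± 0.12). The lipid kinase Pikfyve read 193, 202, 196, 179 and 178 in controls and 158, 138, 151, 156 and 136 at 30 mg/kg (-0.36 ± 0.08). The actin-binding protein Lima1 (-0.34 ± 0.09) read 338 to 412 in controls and 269.8 to 317 at 30 mg/kg, and Ostm1 of lysosomal chloride transport (-0.24 ± 0.06) read 216 to 230.4 and 158 to 214. Plekhm1, Pikfyve, Lima1 and Ostm1 were called in 1, 6, 3 and 4 of the 10 fits that left out 1 array. With arrays set to a common median none of the 4 was called (adjusted p 0.0540 to 0.152). With quantile normalization Pikfyve was called (adjusted p = 0.0326) and the others were not (0.0659 to 0.0868). Pikfyve was not lower when all of its probe sets were averaged (0.03, adjusted p = 0.97). Of the 15 called genes with several probe sets, 11 had the same sign in all, counting probe sets near 0 such as those of Rbbp6 at -0.01.

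Markers of other cell types were compared as summed signals, 16 array measures in all. In bulk liver, more cells of a type and more RNA per cell cannot be told apart. The 14 biliary and progenitor markers summed to 518 to 610 in controls and 560 to 762 at 30 mg/kg (two-sided exact permutation p = 0.0238, adjusted over the 16 measures 0.190). No member was called; Epcam read 98.2 to 193 in controls and 120 to 259 at 30 mg/kg, the median change was 0.45, and 7 of the 14 had a mean below the median signal, Krt7 among them at 3.16. The 9 exocrine pancreas markers summed to 1072 to 1392 in controls and 689 to 1059 at 30 mg/kg (exact permutation p = 0.00794, the smallest possible with 5 against 5, adjusted 0.127). Most of that sum was Cela1, at a mean of 934, and 6 of the 9, among them Prss1 at 5.96, were below the median signal. The 19 macrophage markers summed to 5102 to 7335 and 5194 to 6656 (p = 0.746 in the same exact permutation test). The 12 hepatocyte markers summed to 57286 to 74709 and 63039 to 86414 (exact permutation p = 0.0635, adjusted 0.254). Their median change was 0.24 with 10 of 12 above 0, and 0.025 with 7 of 12 above 0 after quantile normalization. The 10 mast cell markers, 8 of them below the median signal, summed to 60.3 to 72.5 and 62.1 to 88.7 (exact permutation p = 0.0397, adjusted 0.212). The part of any of these in the changes above was not tested.

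Rats killed later give separate animals, with controls of their own day. On day 8, 53 of the 57 genes called higher on day 4 and 19 of the 27 called lower had the same sign at 30 mg/kg, and 10 were called again, all of them rises (0.177% of all genes were called higher on day 8 and 0.0559% lower). Those 10 are 11.9% of the 84 and 40% of the 25 genes called on day 8, where 0.233% of all genes were called. On day 15 the same sign was seen in 52 of 57 and 24 of 27, and 23 were called in the same direction (21 rises, 2 falls), which is 27.4% of the 84 and 4.67% of the 493 called that day (4.6% of all genes, 2.71% higher and 1.88% lower). Gsta3, Aldh1a1, Cryl1, Ces2c, Akr7a3, Ugt2b34l1 and Fgf21 were called on days 4, 8 and 15. The 2 falls called again on day 15 were Efna5 (-0.82 ± 0.18, adjusted p = 0.0031) and Epm2aip1 (-0.59 ± 0.09, adjusted p = 6.9e-05).

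Gsta3 was higher by 2.65 ± 0.28 on day 8 and 2.13 ± 0.28 on day 15. Akr7a3 was higher by 1.22 ± 0.20 and 1.13 ± 0.20, Aldh1a1 by 1.86 ± 0.28 and 1.66 ± 0.28, and Cryl1 by 1.25 ± 0.21 and 1.23 ± 0.21. Fgf21 was higher by 1.95 ± 0.36 on day 8 and 3.97 ± 0.36 on day 15, and the effect on day 15 exceeded that on day 4 by 2.49 ± 0.51 (adjusted p = 0.0258 for the interaction). Akr1b7 was higher by 5.93 ± 1.0 on day 8 and by 0.96 ± 1.0 on day 15 (adjusted p = 0.67). Its geometric mean at 30 mg/kg was 111 on day 4 and 125 on day 15, while the controls of day 15 stood at 64.3 against 6.65 for those of day 4 and 3.63 for those of day 8. Rps4y2 had no call on day 15 (0.37 ± 0.15, adjusted p = 0.16), and its effect there differed from that on day 4 by 1.17 ± 0.22 (adjusted p = 0.0128). No gene's effect differed between days 8 and 4 by limma (0 of 10725 adjusted), and 7 genes (0.0653%) had effects that differed between days 15 and 4. Because the 84 genes were chosen on day 4, their day 4 sizes are selected values and those of other days are not.

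On day 24, after 10 days of recovery, none of the 84 was called, where 10 of 10725 genes were (0.0932%; 0.0466% higher and 0.0466% lower). The same sign as on day 4 was seen in 22 of the 57 rises and 17 of the 27 falls, and the median change was -0.05 among the former and -0.04 among the latter, against 0.01 over all genes. The effect was smaller than on day 4 by an interaction test in 14 of the 84, of 39 genes in all (0.364%). That test contains the day 4 difference on which the 84 were chosen, which favours a smaller effect on day 24 in these genes. In Gsta3 the change on day 24 was -0.29 ± 0.31, a difference from day 4 of -2.11 ± 0.42 (adjusted p = 0.0107), and in Cryl1 it was -0.58 ± 0.24, a difference of -1.83 ± 0.32 (adjusted p = 0.00249).

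**Figure D4:**
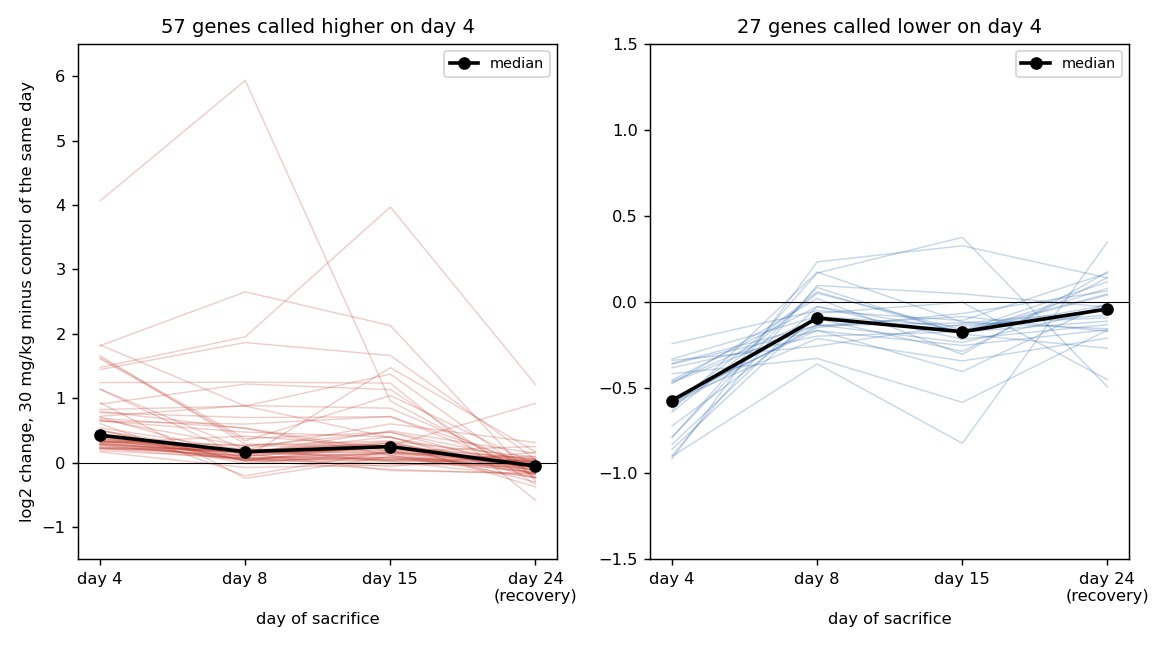
Log2 change at 30 mg/kg against the control of the same day for the 57 genes called higher (left) and 27 called lower (right) on day 4; each thin line is a gene, points are different animals on each day, and black lines are medians. The vertical scales of the panels differ. The medians are 0.43, 0.17, 0.25 and -0.05 for the rises and -0.58, -0.10, -0.18 and -0.04 for the falls on days 4, 8, 15 and 24.

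The 80 mg/kg group of day 4 shares its controls with the 30 mg/kg group, so the doses were compared directly. That comparison still contains the 30 mg/kg arrays on which the rises and falls were called. Their selection favours 80 mg/kg values below those at 30 mg/kg in the rises, and above them in the falls. The differences between doses in these genes are therefore partly fixed by that choice. Of the 57 rises, 13 were higher at 80 than at 30 mg/kg, 2 were lower and 42 did not pass the test. Of the 27 falls, 2 were lower, 3 were higher and 22 did not pass. Between these doses 20.1% of all genes were called, 13.2% higher and 6.84% lower at 80 mg/kg. Against the controls, 27.5% of all genes were called at 80 mg/kg (18.3% higher, 9.19% lower). The median change at that dose was 0.50 among the 57 rises and -0.46 among the 27 falls, against 0.08 over all genes. Both medians use the control arrays on which these genes were called, so their signs are partly fixed by that choice. Gsta3 read 998 to 1265 at 80 mg/kg (1.22 ± 0.30 above 30 mg/kg, adjusted p = 0.0025), Akr7a3 2568 to 5097 (1.18 ± 0.22, adjusted p = 0.0001) and Fgf21 136 to 625 (1.64 ± 0.38, adjusted p = 0.0017). Igfbp2 read 118 to 176, higher by 1.28 ± 0.28 (adjusted p = 0.00091). Efna5 read 60 to 107, lower than at 30 mg/kg by a further step of -0.77 ± 0.19 (adjusted p = 0.0024). In Cth the doses differed by -0.02 ± 0.14 (adjusted p = 0.94), in Cryl1 by 0.21 ± 0.22 (0.55) and in Akr1b7 by -0.18 ± 1.07 (0.93), where the standard errors leave room for differences of either sign.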

How the data were processed

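The deposited values are MAS5 signals, a linear intensity per probe set that the authors scaled to a common level (a trimmed mean of 99.99 on each array), per the submitters' processing notes and the values themselves; the version of MAS5 is not given in the sources used here. Scans were not reprocessed, and scan dates were not used here. Of 31099 probe sets, 57 are controls, 20826 have 1 gene symbol, 436 several and 9837 none, and names were updated by Entrez ID (20764 matched) through RefSeq, assembly GRCr8. Signals were log2 transformed without an offset. Probe sets were kept where 4 or more of the 57 arrays exceeded 17.09, the median of all values, and the one of highest mean stood for its gene (10725 genes).

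limma 3.58.1 in R 4.3.3 fitted 12 group means to all arrays (45 residual degrees of freedom), with a variance trend and Benjamini-Hochberg adjustment. The method was tested on simulated data. Arrays were taken as separate animals, 1 each. The comparison, its gene lists and its tests were chosen with earlier results of these data known. Array values are given for most of the largest rises and falls without overlap and for called members of the 30 pathway lists (12 of the 84 called genes are in a list, 72 in none). Other called genes and list members, such as Igfbp2 and Fitm2, were picked after their values were seen. Figures used matplotlib 3.10.9.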

Additional observations from a re-analysis of the deposited data

Results flagged for a closer look

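Among 234 groups of 5 arrays checked (117 genes), 13 had 1 array far from the others by Dixon's criterion; chance alone gives about 1 in 20. At 30 mg/kg the high ones were Acot2 at 784 (next 385), Mtfmt at 199, Wdr83os at 577 and Ncoa5 at 55.98. The low ones at 30 mg/kg were Epcam at 120 (next 212), Gstm1 at 5328, Kif23 at 8.72, Ndufb4 at 2017 and Nmral1 at 111. Among controls Lama5 was high at 6.03, and Fitm2 was low at 261, Hdac2 at 482 and Zbtb44 at 103.

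The 30 mg/kg effect differed between days by an interaction test in 17 of these genes. Except for Gsta4, the 17 had been called on the day 4 difference that each test contains. On day 15 it was above that of day 4 by 2.49 in Fgf21 and 1.17 in Rps4y2. On day 24, after recovery, it differed from day 4 by -2.11 in Gsta3, -1.83 in Cryl1, -1.25 in Akr7a3, -0.93 in Ces2c, -0.80 in Dnph1, -0.71 in Mthfd1, -0.64 in Lias, -0.64 in 4930522L14Rikl, -0.63 in Dsg2, -0.57 in Gsta4, -0.54 in Fam241b, -0.47 in Clpp and -0.39 in Akr1a1. In the 2 genes that fell on day 4 the difference was positive, 1.25 in Efna5 and 0.41 in Ostm1.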

How the results depend on the processing

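The count of calls moved with most choices, and the causes were not tested beyond the construction of each alternative. Against 84 genes (57 higher, 27 lower), there were 39 (23, 16) with arrays set to a common median, 56 (41, 15) after quantile normalization, 56 (40, 16) with no filter, 59 (42, 17) with no variance trend, 58 (41, 17) with the replicate block, of which 49 were shared, 52 (36, 16) with the actin ratio as covariate, 2 (2, 0) with only the 2 groups fitted, 119 (75, 44) with the mean of probe sets and 198 probe sets (102, 96) when all were tested. Same-numbered arrays did not deviate together (correlations -0.05 to 0.02 over 5 pairs, 1 of 5 best with its own number), so the samples share only a number. A stricter filter, array weights and the offset gave 92, 88 and 84, the last the same 84. Leaving out 1 array gave 19 to 87 calls, 13 to 62 higher and 6 to 30 lower.

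For the 30 mg/kg effect of day 15 minus day 4 the count of 7 became 11 with the offset, array weights or the actin covariate and 2 to 14 without 1 array; for day 24 minus day 4 the 39 became 14 with a common median and 17 to 39 without 1 array. At 30 mg/kg on day 8 the 25 became 14 with a common median, 70 with array weights and 15 with the replicate block. On day 15 the 493 became 300 and 1002 with a common median and array weights. On day 24 the 10 became 18 with quantile normalization, 5 with a common median, 2 with no filter, 6 with all probe sets, 3 with array weights and 6 with the replicate block.

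With the mean of probe sets Pikfyve was 0.031 and Tbl1x -0.20, opposite to their calls. Nqo1, not called, ranged from -0.26 to 0.28 without 1 array, and lay below 0 without control replicates 4 or 5 or 30 mg/kg replicates 3, 4 or 5. Of the 84 calls, 2 held in all 21 alternatives fitted on genes, Gsta3 and Ces2c. With 5 arrays per group and signals near the floor, differences of many low genes may not have been resolved, although 8 of the 57 rises started from a control level below the median of all values.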

Other observations

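Most of the largest differences of the comparison were not calls, although the largest rise, 4.06 in Akr1b7, was one. Of the 9 genes with a difference over 2 on the log2 scale, 8 were not called, and those named here were chosen after their values were seen. RT1-T24-4, a class I histocompatibility gene, read 775, 323, 576, 204 and 567 in controls and 4.75, 0.68, 0.4, 755 and 478 at 30 mg/kg (-5.02 ± 1.97, adjusted p = 0.22). Ubd, a ubiquitin-like modifier whose gene lies in the histocompatibility region, read 662, 378, 620, 5.32 and 313 in controls and 3.3, 3.05, 7.18, 300 and 412 at 30 mg/kg, and RT1-Bb, a class II gene, read 4.09, 5.27, 3.77, 125 and 177 in controls and 313, 255, 175, 8.99 and 136 at 30 mg/kg. In RT1-T24-4 and Ubd the same 3 treated arrays, replicates 1 to 3, were low, and each gene split the rats into a high and a low set in the treated group. At 80 mg/kg 1 of 4 arrays was low in both, RT1-T24-4 at 4.99 and Ubd at 11.1.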
